A study of Homo sapiens with 12 samples.

Results

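Large ribosomal subunit assembly factors are nucleolar and nuclear proteins that build the precursor of the 60S ribosomal subunit and are not part of the finished ribosome. A fixed list of 44 of them was followed here out of 60670 genes in the counts table, and all 44 were among the 16355 genes with enough counts to be tested. The rule names the genes by symbol and function and uses no measured value, but the list was drawn up when results of these data were already known. The factors were measured in MDA-MB-453, an established human breast cancer cell line without estrogen receptor alpha, grown for 72 h in high-glucose medium with 10% fetal bovine serum. One group of 6 libraries received the solvent, 0.001% ethanol, for 6 h (vehicle). The other group of 6 libraries received 10 nM dihydrotestosterone (DHT), a potent natural androgen, for the same 6 h. The labels describe 6 independent replicates per condition from consecutive passages of this 1 line, and give no genotype change in either group. The comparison asks which RNAs differed after a short androgen exposure.

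The large subunit is assembled around ribosomal RNA that RNA polymerase I transcribes in the nucleolus. Scaffold proteins and small complexes fold the precursor RNA and let its spacers be cut out, helicases and ATPases remodel or release the bound factors, and GTPases act at checkpoints before export to the cytoplasm. Many of these genes are known targets of the transcription factor MYC, and cells that grow quickly usually express them at high levels.

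Library totals ran from 4345939 counts in vehicle replicate 6 to 25678380 in DHT replicate 2. In a principal component analysis the libraries numbered replicate 2 were separated from the other 10 by component 1 (51.1%), and vehicle replicate 5 was the extreme of component 2 (15.7%). Vehicle replicate 5 also had the highest share of mitochondrial counts, 8.07% against 3.03% to 5.66% in the others. The treatment was visible in FKBP5, an androgen-induced chaperone gene, at 82.4 ± 15.2 CPM (counts scaled to a common library total) with vehicle and 350.1 ± 63.8 CPM with DHT (mean ± SD, n = 6 each), and in SEC14L2, a lipid-binding protein gene, at 8.05 ± 1.497 and 345 ± 48.7 CPM. The line's own luminal markers were present, with the transcription factor FOXA1 at 612 ± 83.6 CPM with vehicle and 363 ± 39.7 CPM with DHT. FOXA1 and GATA3 fell and no marker of the list rose; the call of GATA3 was lost when certain single libraries were left out (adjusted p up to 0.0771). ESR1 and PGR, the estrogen and progesterone receptors, had 40 and 39 counts over all 12 libraries. The T-cell gene CD3E was at 0 in all 12 libraries, and the 6 leukocyte markers summed to at most 0.852 CPM in any library. The fibroblast list, of which none of 3 tested genes passed (all 3 were lower at an unadjusted p under 0.05), summed to 76.2 to 110.0 CPM with vehicle and 59.8 to 75.7 CPM with DHT, nearly all of it COL1A1, and its part in the results was not tested.

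DHT raised 8 of the 44 assembly factors (18.2%) and lowered none at an adjusted p under 0.05, where 1.96% of all genes tested were raised and 0.88% lowered (edgeR quasi-likelihood test, Benjamini-Hochberg adjustment over 16355 genes). The 8 were RRS1, NOC3L, NIP7, PPAN, RRP1B, NOP16, SURF6 and WDR12. At an unadjusted p under 0.05, 23 factors were higher and 0 lower, beside 6.59% and 5.41% of all genes, and DESeq2 and limma-voom lowered 0 factors as well. The remaining 36 did not pass the adjusted threshold in this fit, which has the treatment as its only term. In what follows a log2 fold change (DHT over vehicle) is given ± its SE, and levels are in CPM. The labels do not say that a replicate number marks the same passage in both groups. Comparisons by replicate number are therefore descriptions, and same-numbered libraries were not treated as pairs in this fit.

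The size of the shift was small and its direction was shared. The median log2 fold change over the 44 factors was 0.36, a level 1.29 times that of vehicle, with quartiles at 0.22 and 0.49, while the median over all genes was -0.05. A log2 fold change above 0 was found for 41 factors (93.2%, against 41.8% of all genes), and the exceptions were NVL, NSA2 and RSL24D1. Together the 44 genes took 0.339 ± 0.0366% of all counts in vehicle libraries and 0.434 ± 0.034% in DHT libraries (SD, n = 6 each), and these shares did not overlap: the highest vehicle library held 0.37% and the lowest DHT library 0.383%. In bulk RNA such a share cannot tell apart more cells that express the genes from more RNA per cell.

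**Figure D1:**
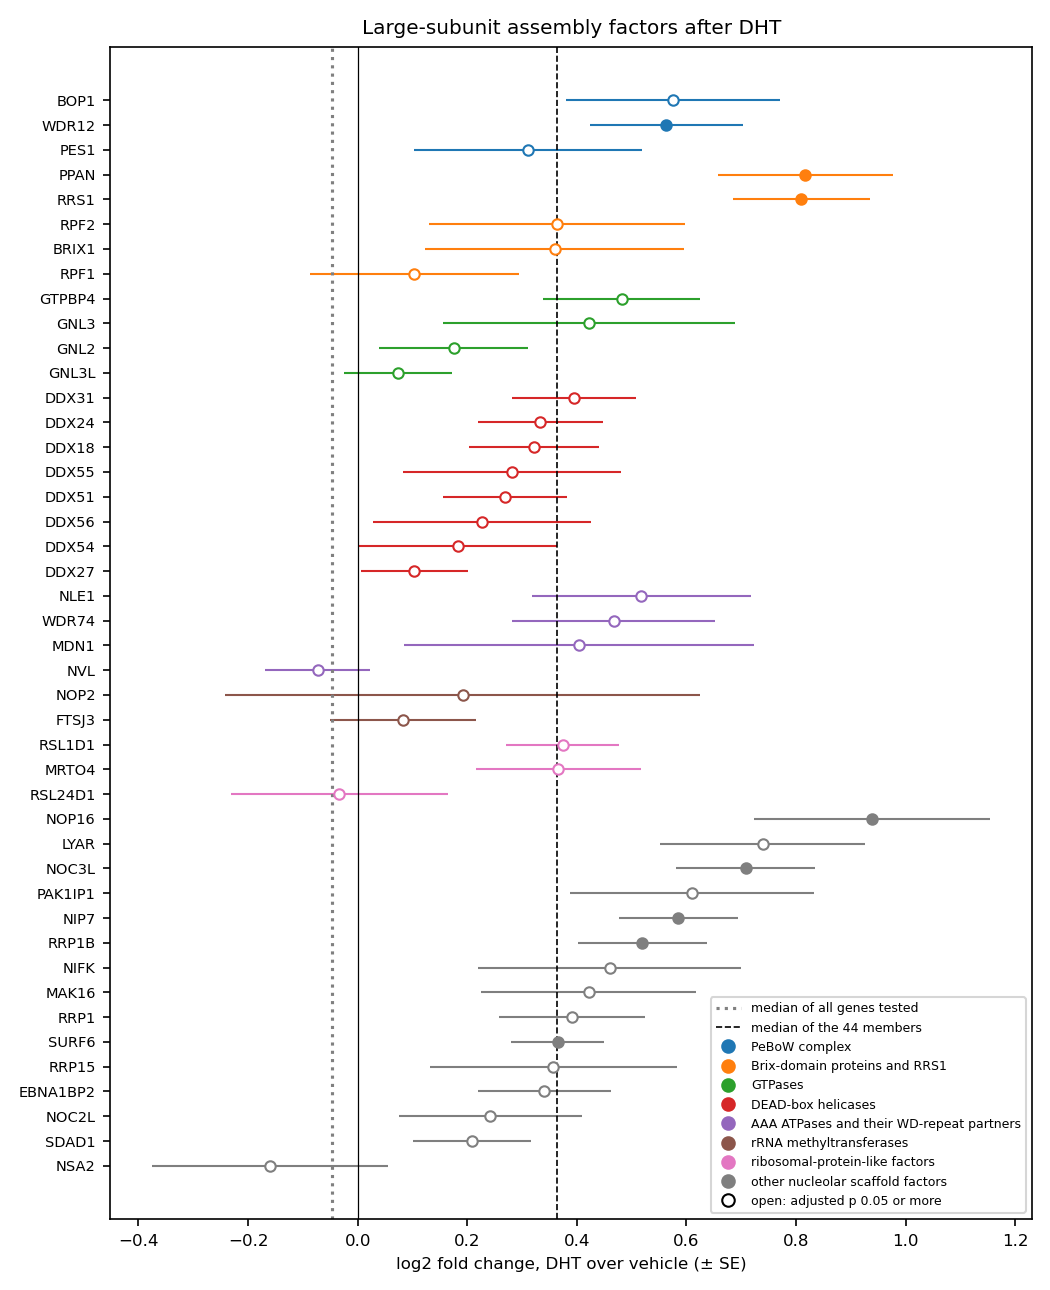
Log2 fold change (DHT over vehicle, ± SE, 6 libraries per group) for each of the 44 assembly factors, coloured by role. Filled points passed an adjusted p under 0.05 (8 factors). The dashed line is the factors' median of 0.36 and the dotted line the median of all genes, -0.05.

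The PeBoW complex, made of PES1, BOP1 and WDR12, is needed for removal of the internal spacer from the large-subunit RNA, and 1 of its 3 genes rose. WDR12, its WD-repeat protein, ran from 34.9 to 68.6 CPM in vehicle libraries (median 50.04) and from 63.8 to 80.3 CPM in DHT libraries (median 72.6). Vehicle replicate 5 alone reached above the lowest DHT library, replicate 2 (adjusted p = 0.0466, log2 fold change 0.56 ± 0.14). The WDR12 call held when vehicle replicate 2, vehicle replicate 5 or DHT replicate 2 was left out, and was lost without any one of the other 9 libraries.

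BOP1, the partner that binds both others, had levels of 78.8 to 173 CPM with vehicle (median 103) and 141 to 239.8 CPM with DHT (median 167). Its highest vehicle and its highest DHT library were both replicate 2, and DHT was the higher in all 6 replicate numbers. Vehicle replicates 2 and 5 still reached into the DHT range, and BOP1 did not pass (adjusted p = 0.184, log2 fold change 0.57 ± 0.195). It passed in edgeR without both replicate 2 libraries (adjusted p = 0.0267) and with GC and length offsets (adjusted p = 5.72e-04). With DESeq2 (adjusted p = 0.0889) and limma-voom (adjusted p = 0.156) it did not. PES1, or pescadillo, showed 138 to 283 CPM in vehicle (median 144) and 176 to 330.04 CPM in DHT libraries (median 201), again with replicate 2 highest in both groups. The groups of PES1 overlapped through vehicle replicates 2 and 5, and it did not pass (adjusted p = 0.681, log2 fold change 0.31 ± 0.208).

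The Brix-domain proteins and their partner RRS1 bind the precursor RNA early, and RRS1 with RPF2 brings in the small RNA-protein particle that carries its own ribosomal RNA. Of these 5 genes 2 rose, RRS1 and PPAN. RRS1 (ENSG00000179041) lay at 40.3 to 58.4 CPM in vehicle (median 50.3) and 70.8 to 106 CPM in DHT libraries (median 84.2). Every DHT library was above every vehicle library, with vehicle replicate 2 the lowest of its group and DHT replicate 1 the highest (adjusted p = 0.00259, log2 fold change 0.81 ± 0.125). It had the smallest adjusted p of the 44.

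PPAN (ENSG00000130810, chr19:10106362-10112012, plus strand on GRCh38), a homologue of a yeast factor that enters the earliest particles, was found at 6.34 to 12.4 CPM (median 8.42) with vehicle and 13.5 to 17.95 CPM (median 14.5) with DHT. Its groups did not overlap, and vehicle replicate 5 was the highest of the vehicle libraries (adjusted p = 0.0124, log2 fold change 0.82 ± 0.16). PPAN rested on few reads, 39 to 170 counts in vehicle libraries. Of its exon bases 49.2% are shared on the same strand with other genes. The largest partner is the readthrough gene PPAN-P2RY11, with 1374 shared bases of 2888 and 3 counts over all libraries. The split of reads between the pair is uncertain.

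RPF1, a Brix-domain factor, had 34.5 to 88.5 CPM (median 58.98) in vehicle and 44.8 to 76.7 CPM (median 63.1) in DHT libraries. Vehicle replicate 5 exceeded every DHT library and replicate 2 was lowest in both groups, and RPF1 did not pass (adjusted p = 0.93, log2 fold change 0.10 ± 0.19). RPF2 and BRIX1, with log2 fold changes of 0.36 and 0.36, also had vehicle replicate 5 above every DHT library and replicate 2 lowest in both groups, and did not pass either.

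None of the 4 GTPase genes passed, and all 4 had a log2 fold change above 0. GTPBP4, the homologue of yeast Nog1 and a GTPase of early nucleolar particles, was at 62.8 to 119 CPM (median 96.3) with vehicle and 103 to 149.9 CPM (median 134) with DHT. Vehicle replicate 5 was above the lowest DHT library, replicate 2, with no other overlap, and DHT was higher in all 6 numbers (adjusted p = 0.109, log2 fold change 0.48 ± 0.143). GNL3, or nucleostemin, a GTPase of proliferating and stem cells, was at 68.9 to 259 CPM (median 176) in vehicle and 132 to 292 CPM (median 240.3) in DHT libraries, with replicate 2 the lowest of both groups, a wide overlap and no call (adjusted p = 0.65, log2 fold change 0.42 ± 0.266). GNL3L, its relative, stood at 65.8 to 90.2 CPM (median 77.4) in vehicle and 71.7 to 90.6 CPM (median 81.9) in DHT libraries, nearly the same range (adjusted p = 0.899, log2 fold change 0.07 ± 0.0991). GNL2, a GTPase of late nuclear particles, had a log2 fold change of 0.18.

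The 8 DEAD-box helicases, which unwind or remodel precursor RNA, had log2 fold changes from 0.10 to 0.39 with a median of 0.28, and none passed. DDX31 was nearest to the threshold. It was found at 29.5 to 43.01 CPM (median 37.3) with vehicle and 44.1 to 54.3 CPM (median 45.6) with DHT. Its groups did not overlap, yet the adjusted p missed the threshold (adjusted p = 0.0932, log2 fold change 0.39 ± 0.113). DDX24 was among the more abundant, at 229 to 285 CPM (median 256) with vehicle and 267 to 377 CPM (median 315) with DHT, and vehicle replicates 1 and 2 were above the lowest DHT library, replicate 4 (adjusted p = 0.188, log2 fold change 0.33 ± 0.114).

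DDX54 had 82.3 to 157 CPM (median 90.8) in vehicle and 89.3 to 165 CPM (median 107) in DHT libraries, with replicate 2 far above the other libraries of both groups (adjusted p = 0.839, log2 fold change 0.18 ± 0.182). DHT was nonetheless the higher in all 6 replicate numbers for DDX54, as for 7 of the 8 helicases, DDX27 being the exception with 5. The others had log2 fold changes of 0.32 (DDX18), 0.27 (DDX51), 0.28 (DDX55), 0.23 (DDX56) and 0.10 (DDX27).

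AAA ATPases pull assembly factors off the particle, and WD-repeat proteins are their partners or substrates. None of these 4 genes passed. NLE1, which the giant ATPase midasin (MDN1) removes, was at 26.1 to 52.8 CPM (median 29.4) with vehicle and 35.5 to 70.97 CPM (median 45.2) with DHT. Only vehicle replicate 2 reached into the DHT range, and DHT was higher in all 6 numbers (adjusted p = 0.271, log2 fold change 0.52 ± 0.2). WDR74, which works with the ATPase NVL, had 23.9 to 45.5 CPM (median 26.9) with vehicle and 31.96 to 60.6 CPM (median 39.9) with DHT, with vehicle replicates 2 and 5 inside the DHT range (adjusted p = 0.288, log2 fold change 0.47 ± 0.185).

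NVL went the other way, at 149.997 to 189.9 CPM (median 171) in vehicle and 143 to 174 CPM (median 166) in DHT libraries. It was higher in DHT in 1 of 6 replicate numbers and its groups overlapped over most of their range (adjusted p = 0.898, log2 fold change -0.07 ± 0.0963). MDN1 had a log2 fold change of 0.40 with the large SE of 0.319, and its replicate 2 libraries were the lowest of both groups.

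The 2 methyltransferases of the large-subunit RNA did not pass. FTSJ3, which methylates ribose, was at 270.3 to 400.4 CPM (median 283) with vehicle and 273 to 401 CPM (median 302) with DHT, a near-complete overlap (adjusted p = 0.919, log2 fold change 0.08 ± 0.133). NOP2, a cytosine methyltransferase, was counted at 0.445 to 3.63 CPM (median 2.02) in vehicle and 0.638 to 3.67 CPM (median 2.25) in DHT libraries, with replicate 2 lowest in both (adjusted p = 0.947, log2 fold change 0.19 ± 0.433). NOP2 shares 54.4% of its exon bases on the same strand with the gene ENSG00000285238, which had 0 counts, so its level is uncertain.

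The 3 factors that resemble ribosomal proteins did not pass. RSL1D1, which carries the fold of a ribosomal protein of the stalk at the exit site, was at 158 to 211 CPM (median 164) in vehicle and 203 to 236 CPM (median 219.5) in DHT libraries. Vehicle replicate 5 was the one library above the lowest DHT value (adjusted p = 0.0763, log2 fold change 0.37 ± 0.103). MRTO4, a placeholder for the acidic stalk protein, had 51.8 to 99.8 CPM (median 61.01) with vehicle and 75.98 to 102 CPM (median 82.9) with DHT, with vehicle replicate 5 again the one above the lowest DHT value (adjusted p = 0.315, log2 fold change 0.37 ± 0.15).

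RSL24D1, a placeholder for a related ribosomal protein, ranged over 109 to 264 CPM (median 129) with vehicle and 124 to 189.5 CPM (median 142) with DHT. Its highest library of all 12 was vehicle replicate 5, and the next vehicle library lay at 141.5 CPM (adjusted p = 0.983, log2 fold change -0.03 ± 0.198). The sign of this value is not stable: it was above 0 with library totals only, with the GC offsets and without vehicle replicate 5, at 0.03, 0.02 and 0.21.

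Of 15 other nucleolar scaffold factors 5 rose, NOC3L, NIP7, RRP1B, NOP16 and SURF6, with a group median of 0.42. NOC3L (ENSG00000173145, chr10:94333226-94362959, minus strand on GRCh38), a partner of NOC2L in early particles, was at 21.5 to 34.3 CPM (median 25.6) with vehicle and 36.8 to 47.8 CPM (median 43.4) with DHT. Its groups did not overlap and the lowest DHT library was replicate 4 (adjusted p = 0.00658, log2 fold change 0.71 ± 0.126). NIP7 (ENSG00000132603, chr16:69337996-69343106, plus strand), an RNA-binding factor, had 20.3 to 29.1 CPM (median 27.7) in vehicle and 35.9 to 41.7 CPM (median 39.8) in DHT libraries. All DHT libraries of NIP7 were above all vehicle libraries and lay close together (adjusted p = 0.00819, log2 fold change 0.59 ± 0.108).

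RRP1B, a nucleolar protein that also binds a protein phosphatase, was found at 36.4 to 56.6 CPM (median 50.6) with vehicle and 61.9 to 76.1 CPM (median 69.7) with DHT, again with no overlap (adjusted p = 0.0291, log2 fold change 0.52 ± 0.118). Its paralog RRP1 did not pass (adjusted p = 0.185, log2 fold change 0.39 ± 0.133), and the split of short reads between the pair was not checked. NOP16 had the largest log2 fold change of the 44, 0.94 ± 0.215 (adjusted p = 0.0309), at 11.1 to 31.5 CPM (median 19.8) with vehicle and 30.9 to 42.6 CPM (median 37.4) with DHT, and only vehicle replicate 5 was above the lowest DHT library, replicate 2. SURF6 had the smallest SE of the 44, at 55.97 to 67.4 CPM (median 61.7) with vehicle and 75.05 to 84.1 CPM (median 80.2) with DHT and no overlap (adjusted p = 0.0339, log2 fold change 0.36 ± 0.0852). NOC2L and NSA2 had the largest p of this group. NOC2L was at 121 to 221 CPM (median 135) with vehicle and 147 to 238 CPM (median 168) with DHT, and replicate 2 was the highest of both groups (adjusted p = 0.702, log2 fold change 0.24 ± 0.167).

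NSA2 had 43.2 to 129.8 CPM (median 59.3) in vehicle and 51.9 to 67.95 CPM (median 63.1) in DHT libraries. Vehicle replicate 5 was the highest of all 12 libraries, and the next vehicle library lay at 66.2 CPM (adjusted p = 0.899, log2 fold change -0.16 ± 0.215). The log2 fold change of NSA2 was 0.12 without that library. Of its exon bases 54.4% lie opposite exons of other genes, with the strand setting of the counting not given. The largest partner is FAM169A, with 2540 shared bases of 4962. LYAR, a zinc-finger nucleolar protein, just missed the threshold (adjusted p = 0.0506, log2 fold change 0.74 ± 0.187). PAK1IP1 (0.61), NIFK (0.46), MAK16 (0.42), RRP15 (0.36), EBNA1BP2 (0.34) and SDAD1 (0.21) had log2 fold changes above 0 and did not pass.

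RRS1, NOC3L, NIP7 and PPAN passed in each of the 12 fits that left out 1 library. RRP1B (adjusted p up to 0.0829) was lost without vehicle replicate 3 or 6 or any DHT library but replicate 2. NOP16 (up to 0.0786) and WDR12 (up to 0.119) were lost in these 7 fits and also without vehicle replicate 1 or 4, and SURF6 (up to 0.098) in those 9 and without DHT replicate 2. The number of factors raised was 4 in those 7 fits, 5 without vehicle replicate 1 or 4, 8 without DHT replicate 2, 12 without vehicle replicate 5 and 13 without vehicle replicate 2. Over these fits 1.15% to 2.62% of all genes were raised.

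**Figure D2:**
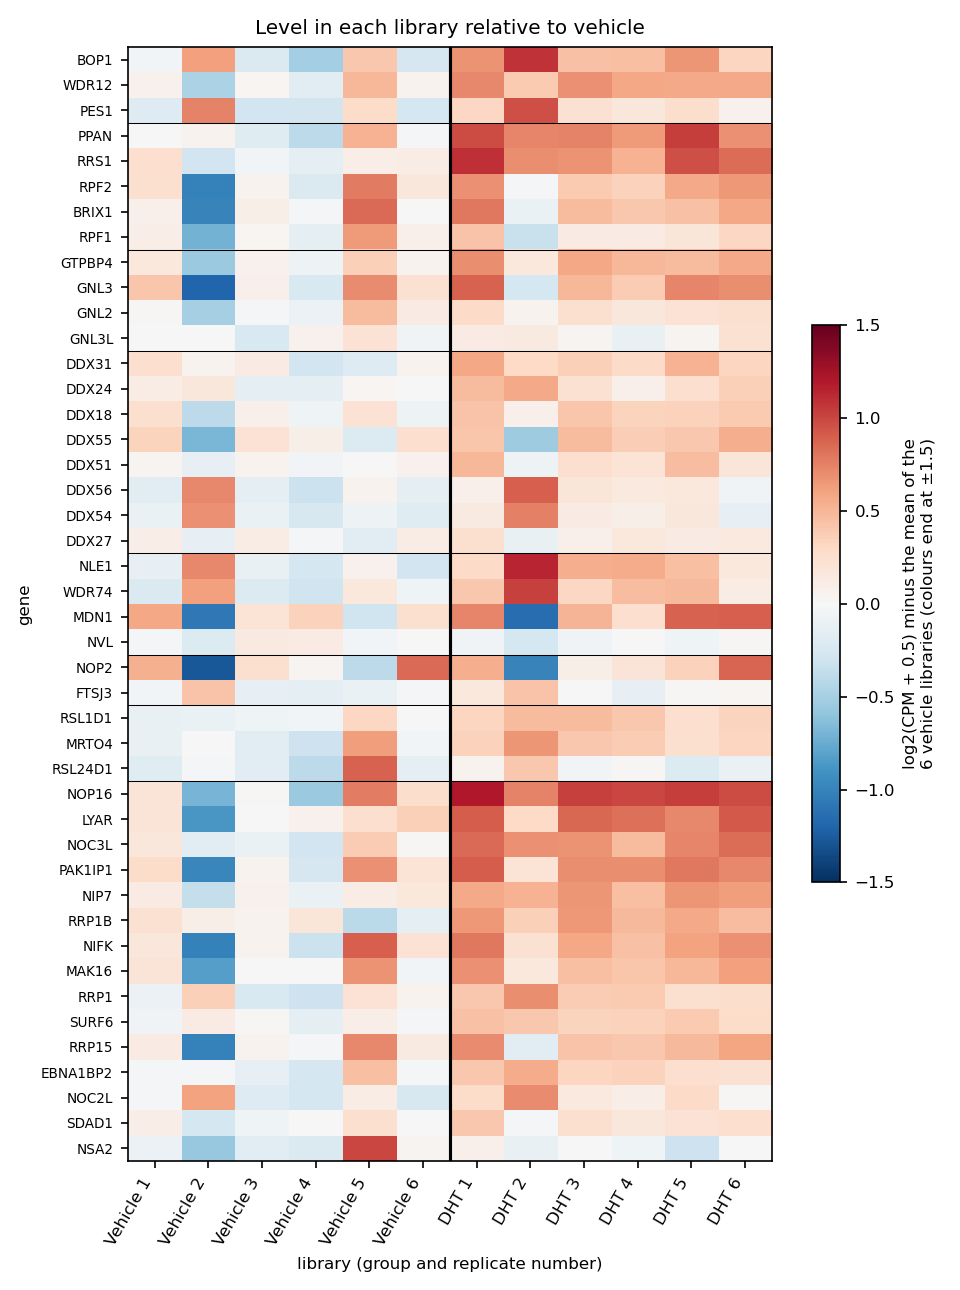
Level of the 44 assembly factors in each of the 12 libraries, as log2(CPM + 0.5) minus the mean of the 6 vehicle libraries (red above, blue below). Horizontal lines separate the role groups. DHT libraries are mostly red, the 2 replicate 2 columns differ in pattern from the others, and vehicle replicate 5 is red for many factors.

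Over the 6 replicate numbers, DHT was higher than vehicle for 43 of the 44 factors in number 1, 42 in number 2, 41 in numbers 3 and 4, 28 in number 5 and 43 in number 6. The median difference in log2(CPM + 0.5) was 0.44, 0.44, 0.38, 0.45, 0.12 and 0.36 in that order (mean 0.36, SD 0.13, n = 6), while the median over all genes stayed between -0.04 and 0.01. Number 5 was the exception, and vehicle replicate 5 had a member level 0.25 above the vehicle mean (median over factors, log2). Without that library the count of factors raised was 12, where 2.16% of all genes were raised, and the median log2 fold change was 0.44.

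DHT was higher in all 6 numbers for 25 factors (56.8%, against 8.78% of all genes), with the numbers taken as labels and not as established pairs. A further 15 were higher in 5 of 6 numbers, MDN1, GNL3L and NSA2 in 4, and NVL in 1. With number 5 set aside, 38 were higher in each of the other 5, against 14.2% of all genes. With number 2 set aside, 25 were higher in each of the other 5, a count for which the share of all genes was not computed. Groups did not overlap for 7 factors (15.9%, against 2.28% of all genes): RRS1, NOC3L, NIP7, PPAN, RRP1B, SURF6 and DDX31. No factor had all DHT libraries below all vehicle libraries, which 0.991% of all genes did.

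**Figure D3:**
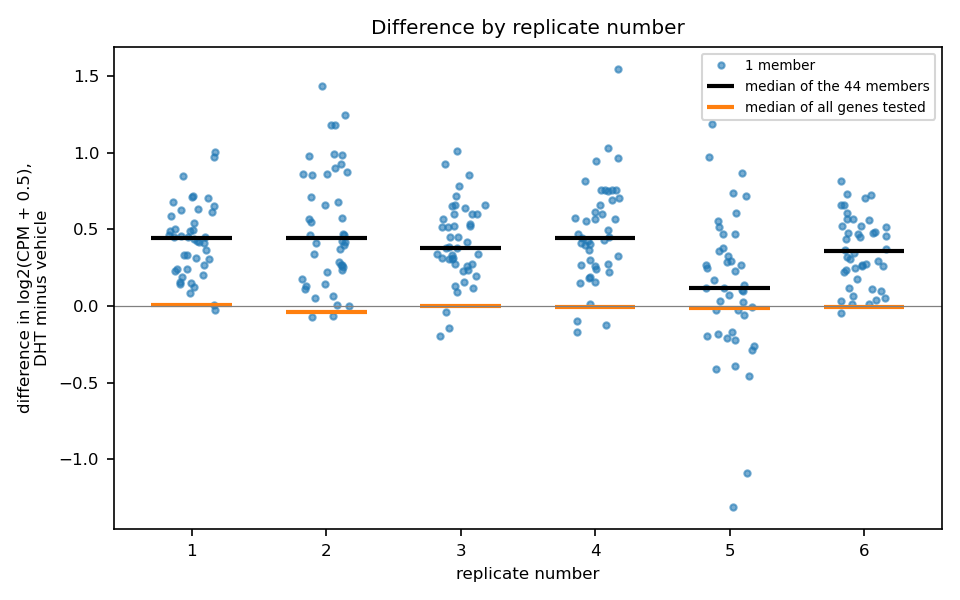
Difference in log2(CPM + 0.5), DHT minus vehicle, for each of the 44 factors (points) in each replicate number, with the median of the factors (black) and of all genes (orange). The medians of the factors lie between 0.36 and 0.45 except in number 5, where it is 0.12.

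More factors passed without replicate 2, at a slightly lower median. Leaving out both its libraries gave 16 factors raised, among them all 8 of the full comparison, a median log2 fold change of 0.33, while 3.7% of all genes tested were raised. Without them 17 factors had no overlap between groups, as did 5.39% of all genes in the same 10 libraries. The member share of counts was lowest in replicate 2 within each group, 0.278% with vehicle and 0.383% with DHT. Within these libraries factors of high GC content stood higher than those of low GC content. Among the 22 factors of 35.5% to 48.7% GC, 19 were lower in replicate 2 than in the other libraries of its group, by a median of -0.47 on the log2 scale, and of the 22 at 49.8% to 65.5% GC, 9 were lower, with a median of 0.10.

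Across the 44 factors, GC content ran with the deviation of replicate 2 (Pearson r = 0.59, Spearman rho = 0.61) and against the deviation of vehicle replicate 5 (r = -0.52, rho = -0.55). These are descriptions over genes that share libraries and are not independent. GC content ran much less with the log2 fold change itself (r = 0.16, rho = 0.079). The median log2 fold change was 0.37 in the 22 of lower GC and 0.35 in the 22 of higher GC, with 3 and 5 factors raised. With offsets for GC content and transcript length 17 factors passed, all 8 included, against 3.28% of all genes.

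**Figure D4:**
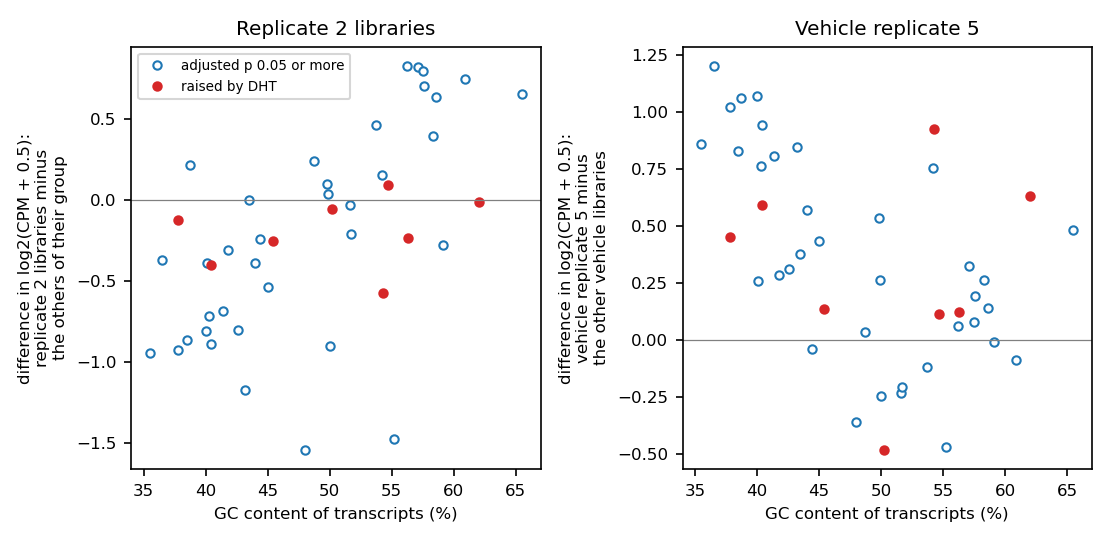
GC content of the transcripts (%) of the 44 factors against the deviation of the replicate 2 libraries from their group (left) and of vehicle replicate 5 from the other vehicle libraries (right), as differences in log2(CPM + 0.5). Red points are the 8 raised factors. The left cloud rises with GC content (r = 0.59) and the right cloud falls (r = -0.52).

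Per length of exon (RPKM, that is, CPM per kilobase), the most abundant factors in vehicle libraries were FTSJ3 at 57.6 ± 9.59, GNL3 at 52.8 ± 20.1 and RSL24D1 at 50.5 ± 19.3 RPKM (SD, n = 6), and these 3 levels lay within their spread. The lowest were NOP2 at 0.433, PPAN at 2.99 and MDN1 at 3.09 RPKM. Of the 44 genes, 29 share at least 1 exon base with another gene, and for 3 of them (NOP2, NSA2 and PPAN) over 25% of the bases are shared. Of the 8 raised factors, 7 share less.

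Promoter letters were read because the factors moved together. RefSeq promoters on GRCh38.p14, from 250 bases before to 50 after the annotated start, were matched to 37 of the 44 genes, with 44 promoters in all. The E-box letters CACGTG, the form that MYC with its partner MAX binds best, were in 16 of the 44 promoters (36.4%), against 7.26% of all 35116 promoters and 9.32% of the 14642 promoters of genes tested here. Windows of 30 bases around the E-box (capitals) are shown for a raised factor, the helicase nearest to the threshold, another helicase, midasin and SDAD1.
SURF6 (chr9:133336395-133336424, minus strand): ggagcacaggaaCACGTGcgggaccggggt
DDX31 (chr9:132669988-132670017, minus strand): cctcgcgcgtccCACGTGgggtcccgggcc
DDX54 (chr12:113185522-113185551, minus strand): ctcagcggaggtCACGTGgtcaccgcacct
MDN1 (chr6:89819932-89819961, minus strand): tttctgtcccacCACGTGctgtgttcgcga
SDAD1 (chr4:75991156-75991185, minus strand): tacatgctaacaCACGTGaaaaaatttaca

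The letters CCGGAAG, or CTTCCGG on the other strand, which ETS-family factors bind, were in 18 of the 44 promoters (40.9%), against 10.3% of all promoters and 17.5% of those of genes tested. The windows of 5 raised factors are shown, with these letters in capitals. In NOP16 a copy on each strand overlaps to give CTTCCGGAAG.
NOC3L (chr10:94362970-94362999, minus strand): gtcccgccctcaCTTCCGGcggcggaggat
NIP7 (chr16:69339565-69339594, plus strand): aacgtcacttccCTTCCGGaccacaagggg
NOP16 (chr5:176388599-176388628, minus strand): cttgtgcacgcCTTCCGGAAGgagtttgtt
PPAN (chr19:10106332-10106361, plus strand): ggaagtgagctgcgcagcgCCGGAAGcggc
SURF6 (chr9:133336271-133336300, minus strand): ccccgcgcgccgCTTCCGGcggagtcaggc

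Genes with and without these letters are set side by side here. Counted by gene, CACGTG was in 40.5% of the 37 matched factors and in 12.5% of the matched genes tested. For the ETS letters these shares were 48.6% and 23.1%. The raised factors RRS1 and RRP1B had no matched promoter and are left out. The 15 genes with CACGTG had a median log2 fold change of 0.37 and 2 were raised, and the 22 without had a median of 0.31 and 4 were raised. Of the 18 genes with the ETS letters 5 were raised, with a median of 0.36, and of the 19 without 1 was raised, with a median of 0.33. The full palindromic androgen response element, AGAACA and TGTTCT with 3 bases of any kind between them, which reads the same on both strands, was in 0 of the 44 promoters and in 1 of all 35116. So rare a match makes the 0 of 44 uninformative, and binding of the androgen receptor was not tested. The letters of all these motifs are descriptions of a window, and the motifs were chosen with the results known.

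The genes around these factors in the pathway were followed by lists. Of 23 tested other large-subunit assembly factors 5 rose and none fell, with a median log2 fold change of 0.18. The smallest p was that of CCDC86, a nucleolar coiled-coil protein, at 29.6 ± 7.54 CPM with vehicle and 70.9 ± 13.2 CPM with DHT (adjusted p = 8.27e-04, log2 fold change 1.26 ± 0.17). The others were DDX21, a helicase of the nucleolus, NCL (nucleolin), URB1 and URB2, and the calls of the last 3 were lost when certain single libraries were left out (adjusted p up to 0.0796, 0.0624 and 0.0564). None of 12 genes of export and cytoplasmic maturation passed (median 0.04), ABCE1, a recycling ATPase, being nearest at 117 ± 25.1 and 173 ± 13.03 CPM (adjusted p = 0.0573, log2 fold change 0.56 ± 0.146). None of 48 large-subunit ribosomal protein genes passed. Of all genes tested 41.8% had a log2 fold change above 0 (median -0.05), while 45 of these 48 had one below 0 (median -0.14). RPL11 had the smallest p of the 48, at 576 ± 350.2 and 445 ± 48.7 CPM (adjusted p = 0.73, log2 fold change -0.37 ± 0.27). Its vehicle libraries ran from 422 to 1290 CPM and its DHT libraries from 386 to 514 CPM. The summed ribosomal protein level was 14300 to 38200 CPM with vehicle and 14500 to 38000 CPM with DHT.

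In the small-subunit processome, the particle that starts the other subunit, 11 of 53 genes rose and none fell (median 0.28), and 5 of the 11 kept the call without each single library. HEATR1, NOP14, PWP2, RRP9, DDX10 and PDCD11 lost it in at least 1 such fit, with adjusted p up to 0.12, 0.0668, 0.0676, 0.0797, 0.139 and 0.0594. WDR3, one of its WD-repeat proteins, led with 54.1 ± 7.803 CPM under vehicle and 98.5 ± 9.24 CPM under DHT (adjusted p = 7.15e-04, log2 fold change 0.86 ± 0.114). Of 20 genes of the RNA polymerase I machinery 1 rose, POLR1B, the second largest subunit of the enzyme, from 51.9 ± 5.65 to 82.3 ± 4.48 CPM (adjusted p = 0.00141, log2 fold change 0.67 ± 0.0961). MYC, at 38.4 ± 10.7 CPM with vehicle, rose to 138 ± 24.3 CPM with DHT (adjusted p = 8.42e-05, log2 fold change 1.85 ± 0.189), with every DHT library above every vehicle library. Of the 12 tested genes of its network list 2 rose, MYC among them, and 1 fell.

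**Figure D5:**
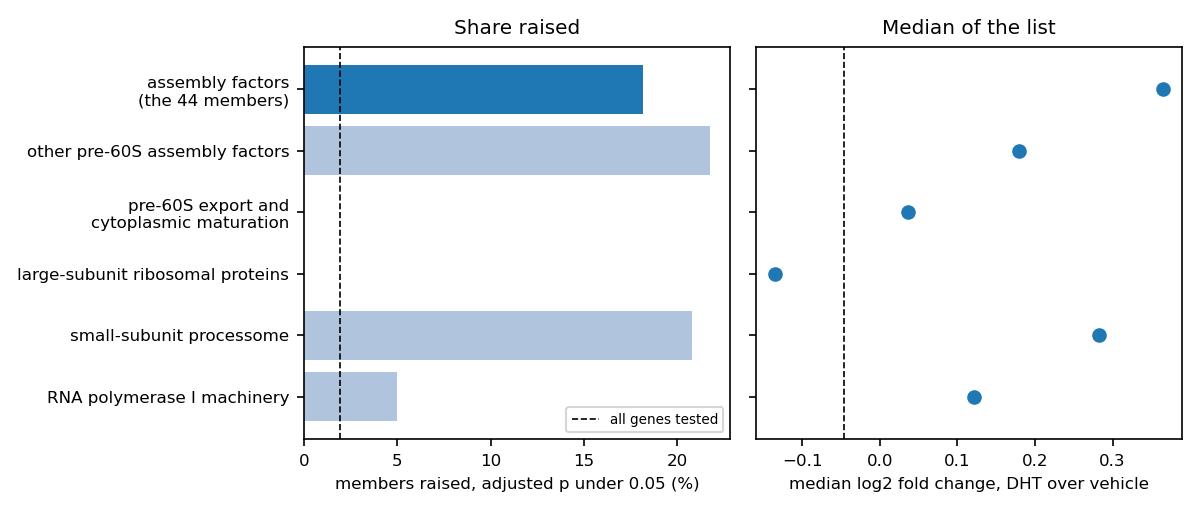
Share of genes raised by DHT at an adjusted p under 0.05 (left, %) and median log2 fold change (right) for the 44 assembly factors and 5 lists of the pathway, with all genes tested as a dashed line (1.96% raised, median -0.05). The assembly factors have 18.2% raised and a median of 0.36, and no ribosomal protein gene was raised.

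In the authors' deposited table of their own comparison, 13 of the 44 factors were raised (2.66% of its 14559 genes were) and 0 lowered (1.59%), with a median log2 fold change of 0.361 against -0.0267 over all its genes. Of these 13, 7 were among the 8 raised here. SURF6 was the one that was not, with an adjusted p of 0.525 in the authors' deposited table. BOP1, GNL3, WDR74, NIFK, LYAR and PAK1IP1 passed in the authors' deposited table and not here.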

How the data were processed

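RNA was measured in 12 libraries, grouped by the labelled treatment. The authors deposited estimated counts for each gene; the submitters' processing notes name STAR, featureCounts and GRCh38, without options, strand setting or versions. Reads were single, of 40 bp, from 1 µg RNA per the labels. The design text names poly-A RNA, the protocol a total RNA kit. Because 39.6% to 46.7% of nonzero values were not whole (tolerance 0.005), values were rounded. One record broken over 3 lines was left out. A table of the authors' own comparison holds deposited log2 values (average CPM and fold change), p-values, GC percent, transcript length and ranking scores, per the file headers; the scores were not used and its model is unknown here.

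Genes kept by filterByExpr were TMM-scaled and tested by edgeR 4.0.16 (R 4.3.3, quasi-likelihood, term: group). The p-values were adjusted by Benjamini-Hochberg, threshold 0.05, and SE was taken as fold change (log2) divided by the root of F. CPM uses TMM-scaled totals. Before that scaling 1 count was worth 0.0389 to 0.23 CPM. Code was tested on simulated data. Alternatives were DESeq2 1.42.0, limma 3.58.1 (voom), other scalings and filters, unrounded counts, offsets for GC and length, replicate number as a block, and libraries left out.

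Members, lists, motifs and tests were chosen with earlier results of these data known. Genes given by library followed a rule: all of PeBoW and the methyltransferases, the 2 smallest and 1 largest p in each other role group (3 and 2 in the group of 15), the smallest p of each pathway list, MYC, FKBP5 and SEC14L2. Others were named after their values were seen. Some marker genes are not reported here.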

Additional observations from a re-analysis of the deposited data

Results flagged for a closer look

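Of 91 sets of 6 values examined, 25 had 1 value farther from the rest than Dixon's 95% critical value allows. Chance flags about 1 in 20 of independent, normally distributed sets. The sets here come from the same 12 libraries and are not independent, so that rate is no measure for them. The 25 flags were 24 library levels of single factors and 1 median. Of the levels, 19 belonged to replicate 2 and 5 to vehicle replicate 5.

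In DHT replicate 2 the highest CPM of the group was found for PES1 (330.0), DDX54 (164.5), DDX56 (219.5), NLE1 (70.97), WDR74 (60.63), MRTO4 (101.9), RSL24D1 (189.5), NOC2L (238.1) and RRP1 (60.04). The lowest was found there for DDX18 (99.35), DDX55 (29.38), NVL (143.4), LYAR (22.78) and PAK1IP1 (31.93). Vehicle replicate 2 was highest for DDX54 (157.3), DDX56 (194.1), NLE1 (52.79), FTSJ3 (400.4) and NOC2L (220.5). Vehicle replicate 5 was highest for MRTO4 (99.82), RSL24D1 (264.4), RSL1D1 (211.0), EBNA1BP2 (106.5) and NSA2 (129.8). Of the 8 raised factors none was flagged.

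The median difference between DHT and vehicle over the 44 factors was lower in replicate number 5, at 0.1164 on the log2 scale, than in the other 5 numbers.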

How the results depend on the processing

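The median log2 fold change of the 44 factors stayed between 0.33 and 0.44 and none was lowered in any alternative fitted. The number raised, 8 (1.96% of all genes), was 13 with DESeq2 (3.12%), 17 with GC and length offsets (3.28%), 16 without both replicate 2 libraries (3.7%) and 3 at an adjusted p under 0.01 (0.838%); leaving out 1 library gave 4 to 13 (1.15% to 2.62%). It was 6 to 9 with limma-voom, other scalings, other filters and unrounded counts (0.706% to 2.03%). Of the 8 calls, NIP7, RRP1B and WDR12 were lost with library totals only, RRP1B, SURF6 and WDR12 with no low-count filter, and WDR12 with upper-quartile scaling. The cause was not tested. Factors with no overlap between groups, 7 (2.28% of all genes), numbered 17 without both replicate 2 libraries (5.39%) and 7 to 15 with 1 library left out (2.31% to 3.92%), with 15 without DHT replicate 2 (3.92%) and 14 without vehicle replicate 5 (2.98%).

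With the replicate number as a block 20 factors passed (4.67% of all genes), 33 with GC and length offsets as well (8.02%), and 14 with the block and without both replicate 2 libraries (3.25%). The 20 were the 8 called without the block and 12 more: BOP1, GNL3, GTPBP4, DDX18, DDX24, DDX31, NLE1, WDR74, RSL1D1, RRP1, LYAR and PAK1IP1. The number was not used as a pairing: same-numbered libraries deviated together with correlations of 0.26 to 0.87 except number 5, at -0.24, and 3 of 6 vehicle and 3 of 6 DHT libraries correlated best with their own number.

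For the other lists, the share of all genes raised was 4.67% with the block, 3.12% with DESeq2 and 3.7% without both replicate 2 libraries. Of 12 export genes 1 was raised with the block, 1 with DESeq2 and 1 without both replicate 2 libraries. Of 53 processome genes 23 were raised with the block and 17 without both replicate 2 libraries. Of 20 polymerase I genes 5 were raised with the block, 4 with DESeq2 and 2 without both replicate 2 libraries. Of 1100 values of single factors 968 kept direction and call, 80 gained a call, 42 lost one and 10 changed sign, in 4 factors. With 1 library left out RPF1 ranged from -0.0111 to 0.258, NOP2 from -0.0323 to 0.412, RSL24D1 from -0.12 to 0.21 and NSA2 from -0.26 to 0.12. RSL24D1 was also 0.0343 with GC and length offsets and the block, 0.0232 with the offsets, 0.035 with library totals, 0.015 with limma-voom and 0.0282 with the block. The fewest counts were 6 for NOP2, in vehicle replicate 2, and 39 for PPAN, in vehicle replicate 6, which limits the precision of both.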

Other observations

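Further genes of the MYC network passed the test, and they were named after their values were seen. MYCN, the neural relative of MYC, fell from 4.55 ± 1.85 to 1.604 ± 0.363 CPM (adjusted p = 0.00868, log2 fold change -1.49 ± 0.277, edgeR), lower in all 6 replicate numbers and with no overlap between groups. MXI1, which competes with MYC for the partner MAX, rose from 15.7 ± 1.33 to 22.5 ± 2.04 CPM (adjusted p = 0.0174, log2 fold change 0.52 ± 0.107), higher in all 6 numbers; its adjusted p reached 0.0549 when 1 library was left out. In each DHT library MYC was at 97.7 CPM or more, and in each vehicle library at 55.2 CPM or less.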
